A study of Mus musculus with 18 samples.

Results

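Annexins are a family of calcium-dependent proteins that bind acidic phospholipids on the inner face of cell membranes. The annexin rows of a count table were followed here through the retinal pigment epithelium (RPE), the monolayer that supports photoreceptors from behind, of young mice, old mice and old mice given a reprogramming vector. The members are the 8 rows of the table whose symbol is Anxa1, Anxa2, Anxa3, Anxa4, Anxa5, Anxa6, Anxa7 or Anxa11, out of 21859 rows. In GENCODE M21 (GRCm38) they lie on chromosomes 19 (Anxa1), 9 (Anxa2), 5 (Anxa3), 6 (Anxa4), 3 (Anxa5), 11 (Anxa6) and 14 (Anxa7 and Anxa11). All 8 passed the low-count filter that left 15944 genes. The symbol alone chose them, but earlier results of these data were known at that time.

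RNA from 18 libraries was counted per gene. They are 7 Young libraries (RPE of young mice), 4 Old libraries (RPE of aged mice), 3 Old-Control libraries (aged mice given AAV2-tTA) and 4 Old-OSK libraries (aged mice given AAV2-tTA with TRE-OSK). AAV2 denotes a vector made from adeno-associated virus, tTA a tetracycline-controlled transactivator, and TRE the promoter it drives; both vector-treated groups therefore carry tTA, and the transcription factors Oct4, Sox2 and Klf4 (OSK) are carried by the Old-OSK group alone. The labels used here give no age, strain, vector dose, promoter of tTA or time after treatment. They do not say whether replicates are separate animals, so p-values measure the spread between libraries, which may be partly technical.

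Total counts per library ranged from 18104828 to 32348136. The Oct4 gene Pou5f1 lay between 50.1 and 97.4 CPM (counts relative to library size) in the 4 Old-OSK libraries and at 3.75 or less in the other 14, and Old-OSK replicate 4 was the lowest of its group. The summed level of 9 RPE markers was 40305 to 64783 CPM in Young, 27176 to 47005 in Old, 20559 to 61552 in Old-Control and 15824 to 29843 in Old-OSK. Markers of other cells were present as well. The summed keratins of stratified surface epithelium, which RPE is not known for (Krt5, Krt14, Krt12 and Krt15, all of them detected), ranged from 132 to 4353 CPM in Young, 765 to 15766 in Old, 958 to 3870 in Old-Control and 3100.4 to 21202 in Old-OSK. Names of 6 libraries carry a letter M that the labels do not explain (replicates 5, 6 and 7 of Young, 2 and 3 of Old-Control, and 4 of Old-OSK). These had 4040 to 5493 counts on Y-linked genes, against at most 93 in each other library, and no Old library has the letter.

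When calcium rises, annexins attach to membranes through a conserved core, and each member adds a variable N-terminal tail that binds partners, often S100 proteins. They are known for membrane repair, vesicle traffic and the handling of exposed phosphatidylserine. The RPE swallows shed photoreceptor tips by recognising that lipid every day. Anxa1 carries a peptide that acts on formyl peptide receptors to resolve inflammation. Anxa2 pairs with S100a10 and gathers plasminogen and its activator at the cell surface. Anxa5 binds exposed phosphatidylserine tightly and is the usual probe of dying cells.

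The stretches upstream of 4 members are shown because they represent the range of behaviour described next: Anxa2 varied widely between libraries, Anxa4 and Anxa11 moderately, and Anxa5 little. The sequences are RefSeq promoters of build GRCm38.p6, which held 6 of the 8 members, cut to the bases outside every GENCODE M21 exon. The Anxa1 window lay wholly inside an exon and is not shown. Capitals mark every match, on either strand, to 6 short motifs that were searched for. They are the AP-1 site, spelled TGANTCA, and the KLF site of Klf4 and its relatives, spelled GGGNGTG. The GC box bound by Sp factors was searched as GGGCGG, which can overlap a KLF site. The Sox2-type site was searched as ACAAAG, the octamer of Oct4 as ATGCAAAT and the TATA box as TATAAA.
Anxa2, chr9:69453433-69453619, plus strand: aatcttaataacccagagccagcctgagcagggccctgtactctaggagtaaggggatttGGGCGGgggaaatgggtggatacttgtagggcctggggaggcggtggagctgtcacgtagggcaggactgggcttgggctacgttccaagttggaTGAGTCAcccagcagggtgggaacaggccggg
Anxa4, chr6:86793585-86793834, minus strand: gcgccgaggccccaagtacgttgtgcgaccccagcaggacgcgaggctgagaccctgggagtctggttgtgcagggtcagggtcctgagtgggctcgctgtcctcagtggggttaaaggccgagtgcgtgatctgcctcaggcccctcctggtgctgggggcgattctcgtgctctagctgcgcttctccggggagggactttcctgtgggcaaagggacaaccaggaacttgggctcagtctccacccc
Anxa5, chr3:36475895-36476137, minus strand: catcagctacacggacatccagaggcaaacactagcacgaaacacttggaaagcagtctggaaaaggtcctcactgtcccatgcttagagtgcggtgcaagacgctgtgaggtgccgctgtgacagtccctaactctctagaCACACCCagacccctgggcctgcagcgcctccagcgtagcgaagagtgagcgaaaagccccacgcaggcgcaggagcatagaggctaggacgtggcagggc
Anxa11, chr14:25841905-25842154, plus strand: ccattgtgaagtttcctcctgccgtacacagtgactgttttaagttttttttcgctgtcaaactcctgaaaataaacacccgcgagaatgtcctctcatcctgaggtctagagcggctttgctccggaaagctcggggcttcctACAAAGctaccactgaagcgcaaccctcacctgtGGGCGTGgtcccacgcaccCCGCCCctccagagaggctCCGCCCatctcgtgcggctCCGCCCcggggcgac

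The Anxa2 stretch holds 1 AP-1 match, whose first base is 95 bases before the RefSeq start (position -95), and 1 GC box. AP-1 letters occurred in 6.75% of the 32851 RefSeq windows of 250 bases and the GC box in 32.7%. Anxa5 has 1 KLF match at position -108, a motif found in 26.1% of windows. Anxa11 has 3 GC boxes, 1 KLF match and 1 SOX match at position -106, and SOX letters were in 16.5% of windows. Neither the octamer (1.6% of windows) nor the TATA letters (12.4%) occurred in the 4 stretches shown, and Anxa4 held none of the 6 motifs. A match is a string of letters and was not measured as a binding site.

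Between libraries, the family divided into members that varied widely and members that hardly varied. Levels here are TMM-scaled CPM. Across all 18 libraries Anxa1 ranged 70.9-fold, Anxa2 23.1-fold and Anxa3 12.6-fold, with standard deviations of 1.78, 1.33 and 1.08 on the log2 scale, against a median of 0.37 over all 15944 genes. Anxa4 (0.58) and Anxa11 (0.48) were intermediate. Anxa5 (0.24), Anxa7 (0.23) and Anxa6 (0.17) lay below that median. Young replicate 7 was the lowest library for 6 of the 8 members, all but Anxa6 and Anxa7. Per kilobase of exon (GENCODE M21 union exons), which allows genes to be compared, Anxa5 was the highest member in Young at 92.4 ± 7.46 CPM per kb (SD, n = 7), followed by Anxa2 at 57.6 ± 30.4. In Old-OSK the means of those members were in the other order, with Anxa2 at 319 ± 158 and Anxa5 at 133 ± 14.0 (SD, n = 4). The order did not hold in every library. The highest Young value of Anxa2, 114 CPM per kb, exceeded the highest of Anxa5, 102, and in Old-OSK replicate 4 Anxa2 was at 102 and Anxa5 at 113 CPM per kb. Anxa2 made up 22.1% of the summed per-length level of the 8 members in Young and 43.2% in Old-OSK, and Anxa5 38.4% and 21.3%. Anxa3 was the lowest member per length in Young, at 2.88 ± 1.09 CPM per kb (SD, n = 7).

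**Figure D1:**
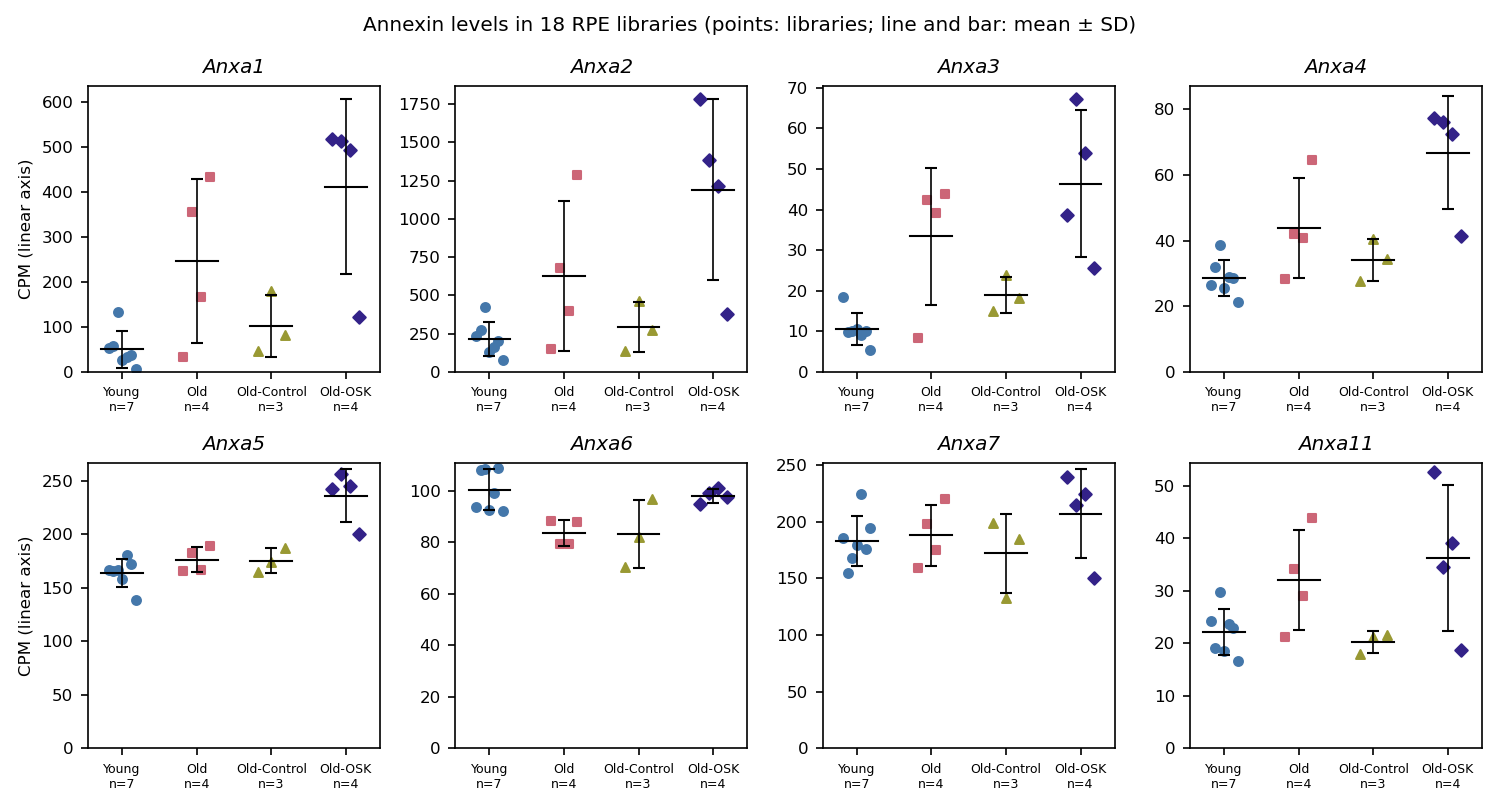
CPM (linear axis) of the 8 annexins in each library by group (Young n = 7, Old n = 4, Old-Control n = 3, Old-OSK n = 4); each point is a library, and the line and bar are the mean ± SD. Anxa1, Anxa2 and Anxa3 spread widely within the Old and Old-OSK groups, while the 4 Old libraries of Anxa6 (79.3 to 88.2 CPM) sit below all 7 Young libraries (92.4 to 109 CPM).

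The first comparison, Old against Young, asks how age relates to the family. Anxa1 and Anxa3 were called higher in Old by edgeR, and no member was called lower by that test. In all, 2 of the 8 members were called higher at an adjusted p under 0.05 (edgeR's quasi-likelihood test, Benjamini-Hochberg over all genes), where 5.4% of the genes tested were called higher, and 0 of 8 were called lower, where 4.16% were. The median log2 fold change was 0.57 over the 8 members and -0.00 over all genes tested. DESeq2 called 5 of the 8, Anxa1 to Anxa4 higher and Anxa6 lower, against 15.4% of all genes in either direction.

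Anxa1, the pro-resolving member, lay at 7.31 CPM in the lowest Young library, 38.5 in the median and 133 in the highest. The 4 Old libraries were at 31.9, 356, 167 and 433 CPM. Old replicate 1 therefore lay within the Young values, while the other 3 were above every Young library. The fitted change was 4.96-fold (log2 2.31, SE 0.65, adjusted p = 0.0386, edgeR). Of the 11 fits that left out 1 library, 2 kept the call (without Young replicate 3 or without Old replicate 1), and without Old replicate 4 the log2 change was 1.89 (adjusted p = 0.177). With the letter M as a covariate it was 1.99 (adjusted p = 0.106), and among the libraries without M alone 1.88 (adjusted p = 0.138).

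Anxa3, whose product has been studied in neutrophils and vessel growth, lay between 5.34 and 18.5 CPM in Young, with a median of 9.94. The Old libraries read 8.24, 42.2, 39.1 and 43.9 CPM. Again Old replicate 1 was inside the Young range and the other 3 were above it. The change was 3.18-fold (log2 1.67, SE 0.37, adjusted p = 0.0131, edgeR). It was called in 10 of the 11 fits with a library left out, the exception being Old replicate 4 (log2 1.51, adjusted p = 0.0609). Among the libraries without M it was 1.45 (adjusted p = 0.0982).

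Anxa2, the plasminogen-binding partner of S100a10, followed a like order without passing the test. Young libraries ranged from 77.1 to 425 CPM with a median of 199.5, and the Old libraries were at 147, 678, 396 and 1284 CPM. Old replicates 1 and 3 lay within the Young range, and replicates 2 and 4 exceeded all Young libraries. The log2 change was 1.54 (SE 0.52, adjusted p = 0.0666, edgeR). It was called when Young replicate 3 or Old replicate 1 was left out, with adjusted p down to 0.0223.

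Anxa4, an annexin of secretory and absorptive epithelia, was at 21.1 to 38.8 CPM in Young (median 28.5) and at 28.3, 41.9, 40.8 and 64.6 CPM in Old. Only Old replicate 1 lay in the Young range. Its log2 change was 0.61 (SE 0.21, adjusted p = 0.0685, edgeR). Anxa11, which tethers RNA granules to lysosomes and binds S100a6, was at 16.6 to 29.8 CPM in Young and 21.1 to 43.8 in Old, with overlapping groups and a log2 change of 0.53 (SE 0.23, adjusted p = 0.135).

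The steady members showed small values. Anxa6, which carries a duplicated core and takes part in cholesterol traffic, was at 92.4 to 109 CPM in Young and at 88.2, 79.5, 79.3 and 88.0 CPM in Old. All 4 Old libraries were below all 7 Young libraries, as was so for 5.61% of genes tested. The log2 change was -0.26 (SE 0.08) and missed the threshold (adjusted p = 0.0530, edgeR). Anxa5 was at 139 to 181 CPM in Young and 166 to 189 in Old, a log2 change of 0.10 (SE 0.08, adjusted p = 0.451). Anxa7, a membrane-fusion annexin that binds the calcium sensor sorcin (Sri), was at 155 to 225 CPM in Young and 159 to 220 in Old, with a log2 change of 0.04 (SE 0.14, adjusted p = 0.890).

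Of the annexins outside the 8 members, Anxa8 and Anxa9 were tested. Anxa8 rose 6.52-fold in Old (log2 2.7, SE 0.73, adjusted p = 0.0328, edgeR), from 22.3 to 146 CPM on average. The call of Anxa8 held in 5 of 11 fits with a library left out. Anxa9 had a log2 change of 1.54 (SE 0.60, adjusted p = 0.103). Anxa10 had at most 4 counts in any library.

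**Figure D2:**
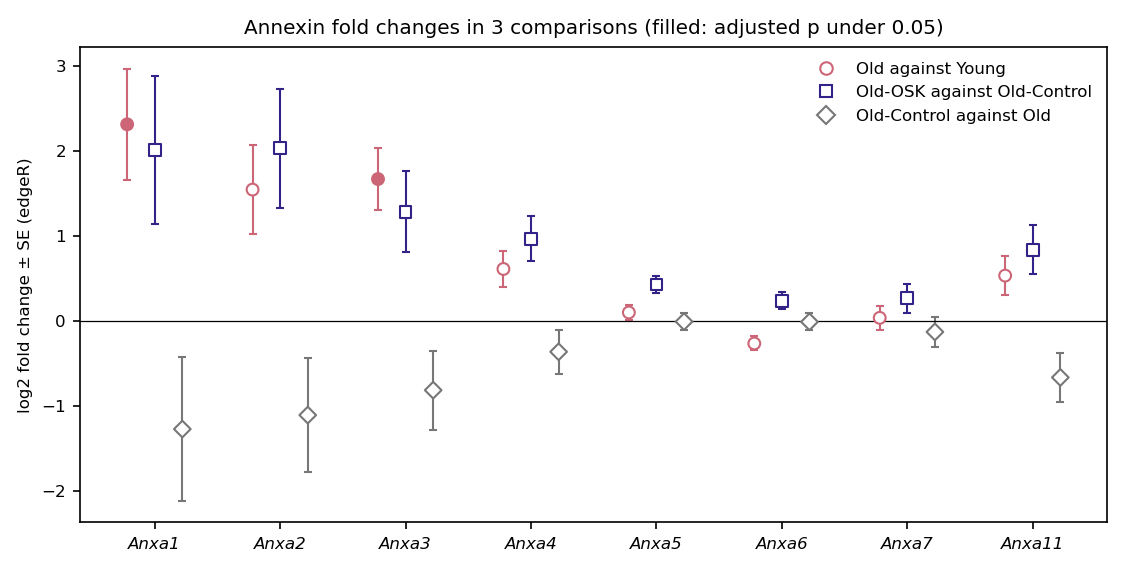
Log2 fold change with its standard error (edgeR) for the 8 annexins in 3 comparisons; filled symbols have an adjusted p under 0.05. Anxa1 (2.31) and Anxa3 (1.67) in Old against Young are the filled symbols, Anxa6 is the member below 0 in that comparison (-0.26), and all 8 estimates for Old-OSK against Old-Control are above 0.

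The second comparison, Old-OSK against Old-Control, asks what the OSK vector adds to the tTA vector in aged RPE. No member passed the test, although all 8 estimates were above 0. By edgeR 0 of 8 members were called higher (0.408% of all genes were) and 0 lower (0.32% were). Over all genes 65 were called higher and 51 lower, and 64 and 29 with DESeq2's median-ratio size factors in place of TMM. At an unadjusted p under 0.05, 7 of 8 were higher, where 13.3% of all genes were higher by that measure. DESeq2 called 5 of 8 higher (Anxa2, Anxa3, Anxa4, Anxa5 and Anxa11), and 6.27% of all genes. The Old-OSK values were all higher than the Old-Control values for 3 members, Anxa3, Anxa4 and Anxa5, and for 6.55% of genes tested. The median log2 fold change was 0.90 over the members and -0.03 over all genes.

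Anxa5, the phosphatidylserine probe, had the lowest adjusted p of the 8. Its Old-Control libraries were at 164, 174 and 188 CPM and its Old-OSK libraries at 242, 257, 246 and 200.1 CPM. The groups did not overlap. The log2 change was 0.43 (SE 0.10, adjusted p = 0.0594, edgeR). Without Old-Control replicate 2 it passed the threshold (adjusted p = 0.0260), as did Anxa2 (0.0468) and Anxa4 (0.0248). Without Old-OSK replicate 4 it passed too (adjusted p = 0.0173), with Anxa2 (0.0434), Anxa4 (0.0206) and Anxa11 (0.0248). These 2 libraries stood apart in the summed level of 6 rod photoreceptor markers, at 16443 and 13989 CPM, against 1382 to 2982 in the other Old-Control libraries and 2464 to 6831 in the other Old-OSK libraries. Old-Control replicate 2 also had the lowest RPE marker sum of its group, 20559 CPM against 53058 and 61552. The part of these markers in the result was not tested.

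Anxa4 was at 27.7, 40.5 and 34.4 CPM in Old-Control and at 77.5, 76.2, 72.5 and 41.3 CPM in Old-OSK. Old-OSK replicate 4 lay just above the highest control, far from the other 3. The log2 change was 0.97 (SE 0.26, adjusted p = 0.0720, edgeR). Anxa3 was at 15.0, 23.9 and 18.2 CPM in Old-Control and 38.6, 67.3, 53.9 and 25.6 CPM in Old-OSK, with the same library lowest. Its log2 change was 1.28 (SE 0.47, adjusted p = 0.115, edgeR).

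Anxa1 and Anxa2 had the largest estimates of the 8 members and overlapping groups. Anxa1 was at 47.0, 179 and 81.2 CPM in Old-Control and at 518, 514, 493 and 122 CPM in Old-OSK (log2 2.01, SE 0.87, adjusted p = 0.158, edgeR). Anxa2 was at 135, 464 and 275 CPM in Old-Control and at 1782, 1381, 1215 and 379 CPM in Old-OSK (log2 2.03, SE 0.70, adjusted p = 0.101). For both genes Old-OSK replicate 4 fell inside the control values. That library carries the letter M, as do Old-Control replicates 2 and 3. Within the M libraries Anxa1 was thus at 179 and 81.2 CPM in the controls and 122 with OSK, and without M at 47.0 against 493 to 518. With the letter as a covariate the log2 change was 1.19 for Anxa1 (adjusted p = 0.536, edgeR) and 1.48 for Anxa2 (adjusted p = 0.324).

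For the remaining members, Anxa11 was at 17.9 to 21.7 CPM in Old-Control and 18.8 to 52.6 in Old-OSK (log2 0.84, SE 0.29, adjusted p = 0.102). Anxa6 was at 70.6 to 96.9 CPM and 94.8 to 101 CPM (log2 0.24, SE 0.10, adjusted p = 0.148, edgeR). Anxa7 was at 133 to 199 CPM and 150.1 to 240 CPM (log2 0.27, SE 0.17, adjusted p = 0.345). With the replicate number as a block, 3 members were called higher: Anxa1 (log2 2.53, adjusted p = 0.0499), Anxa3 (1.47, adjusted p = 0.0436) and Anxa4 (1.15, adjusted p = 0.0468). That fit holds the 3 numbered pairs only and so leaves out Old-OSK replicate 4. The same pairs without the block gave 5 called members. Both of these fits also called more of all genes than the 116 of the fit with all 18 libraries.

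The third comparison, Old-Control against Old, asks what the tTA vector alone goes with. No member differed by the test. 0 of 15944 genes, or 0%, were called by edgeR in either direction, 3.74% had an unadjusted p under 0.05, and 1 of the 8 members did, Anxa11 with a log2 change of -0.66. DESeq2 called 0 genes. All 8 estimates were below 0, with a median of -0.51 against 0.04 over all genes, and Anxa1 stood at 102 ± 68.6 CPM in Old-Control (SD, n = 3) and 247 ± 182 in Old (SD, n = 4). The comparisons share the Old or the Old-Control libraries, so their estimates are not independent.

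Over the 4 groups, mean levels of Anxa1, Anxa2, Anxa3 and Anxa4 ran in the order Young, Old-Control, Old, Old-OSK, and libraries of each neighbouring pair in that order overlapped. For Anxa5 the first 3 groups overlapped (164 ± 13.3 CPM in Young, 175 ± 11.7 in Old-Control and 176 ± 11.7 in Old), and Old-OSK (236 ± 24.8) stood above them with no shared values. For Anxa6, Old-Control and Old were lowest and Young highest, and Old and Old-OSK did not overlap. How many of all genes separate as Anxa5 and Anxa6 did here was not counted. Between Old-OSK and Old-Control alone, the Old-OSK values were all higher for 6.55% of genes tested. Anxa7 and Anxa11 had overlapping neighbours throughout.

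The variable annexins, and Anxa5 among the steady ones, moved with the surface epithelium keratins across libraries. In these bulk samples, more cells of a type cannot be told apart from more RNA per cell. The correlation of log2 Anxa1 with the log2 summed keratins was r = 0.988 and rho = 0.973 over 18 libraries (permutation p = 1e-05 for each, the smallest that 100000 permutations give; 4e-05 and 5.33e-05 after Benjamini-Hochberg adjustment over 16 relations). It was r = 0.983 without the 2 libraries farthest from the median keratin level, 0.977 for deviations from the group means, and 0.977 in the 7 Young libraries alone. The points share libraries and depth scaling. Anxa2 gave r = 0.979 (rho 0.969) and Anxa4 r = 0.961 (rho 0.965), with the same permutation p. Anxa3 gave r = 0.876 (rho 0.83) over all libraries, 0.852 without the 2 farthest, and 0.476 within Young (exact permutation p = 0.270, n = 7). Anxa11 gave r = 0.856 (permutation p = 2e-05, rho 0.825) and Anxa5 r = 0.818 (permutation p = 6e-05, rho 0.769). For deviations from the group means these were 0.825 and 0.734. Within Young, Anxa11 gave r = 0.774 (exact permutation p = 0.0341, 0.078 after adjustment) and Anxa5 r = 0.687 (exact permutation p = 0.133). In the 6 libraries with the letter M Anxa11 gave r = 0.475, against 0.929 in the 12 without it. Anxa6 gave r = 0.04 over all libraries (permutation p = 0.886). Within Young it gave r = 0.788 (exact permutation p = 0.00833, 0.0333 after adjustment, n = 7). Anxa7 gave r = 0.31 (permutation p = 0.207), with -0.650 in the 6 libraries with the letter M and 0.721 in the 12 without it.

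The keratin estimates had the sign of most annexin estimates. Of the 4 keratins, edgeR called 1 higher in Old against Young, where 5.4% of all genes were, and 0 in Old-OSK against Old-Control. Krt14 rose in Old (log2 2.52, adjusted p = 0.0487, edgeR), and all 4 keratins had positive estimates in both Old against Young and Old-OSK against Old-Control. Old replicate 1, which lay in the Young range for Anxa1 to Anxa4, had 765 CPM of summed keratins, inside the Young range of 132 to 4353. Of 11 macrophage markers, 9 were called higher in Old by edgeR, where 5.4% of all genes were. Lyz2 lay at 23.5 to 41.0 CPM in Young, 190 to 467 in Old, 192 to 476 in Old-Control and 268 to 396 in Old-OSK. Csf1r, the largest single term of the list's sum in Young, went from 401 to 620 CPM there to 136 to 227 in Old-OSK. The sum thus joins Csf1r with markers that went the other way, so relations to it need not follow the number of macrophages. Against the log2 summed macrophage markers, Anxa6 gave r = -0.635 over 18 libraries (permutation p = 0.00454, 0.0104 after adjustment). For deviations from the group means Anxa6 gave -0.425, and within Young -0.409 (exact permutation p = 0.363, n = 7). The next lowest p over all libraries was that of Anxa3, with r = 0.487 (permutation p = 0.0414, 0.0829 after adjustment). Anxa1 and Anxa2 gave 0.331 and 0.217 over all libraries, but -0.648 and -0.707 for deviations from the group means. Whether macrophages have a part in the group differences of the annexins was not tested. Adding the keratin score as a covariate, an alternative chosen after seeing the data, changed Anxa1 in Old against Young from 2.31 to 0.60 (adjusted p = 0.498), Anxa3 from 1.67 to 0.89 (adjusted p = 0.284) and Anxa2 from 1.54 to -0.01. In Old-OSK against Old-Control Anxa1 changed from 2.01 to -0.02 and Anxa5 from 0.43 to 0.30. The score differs between groups itself and shares their difference, so group and score cannot be told apart in that fit.

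**Figure D3:**
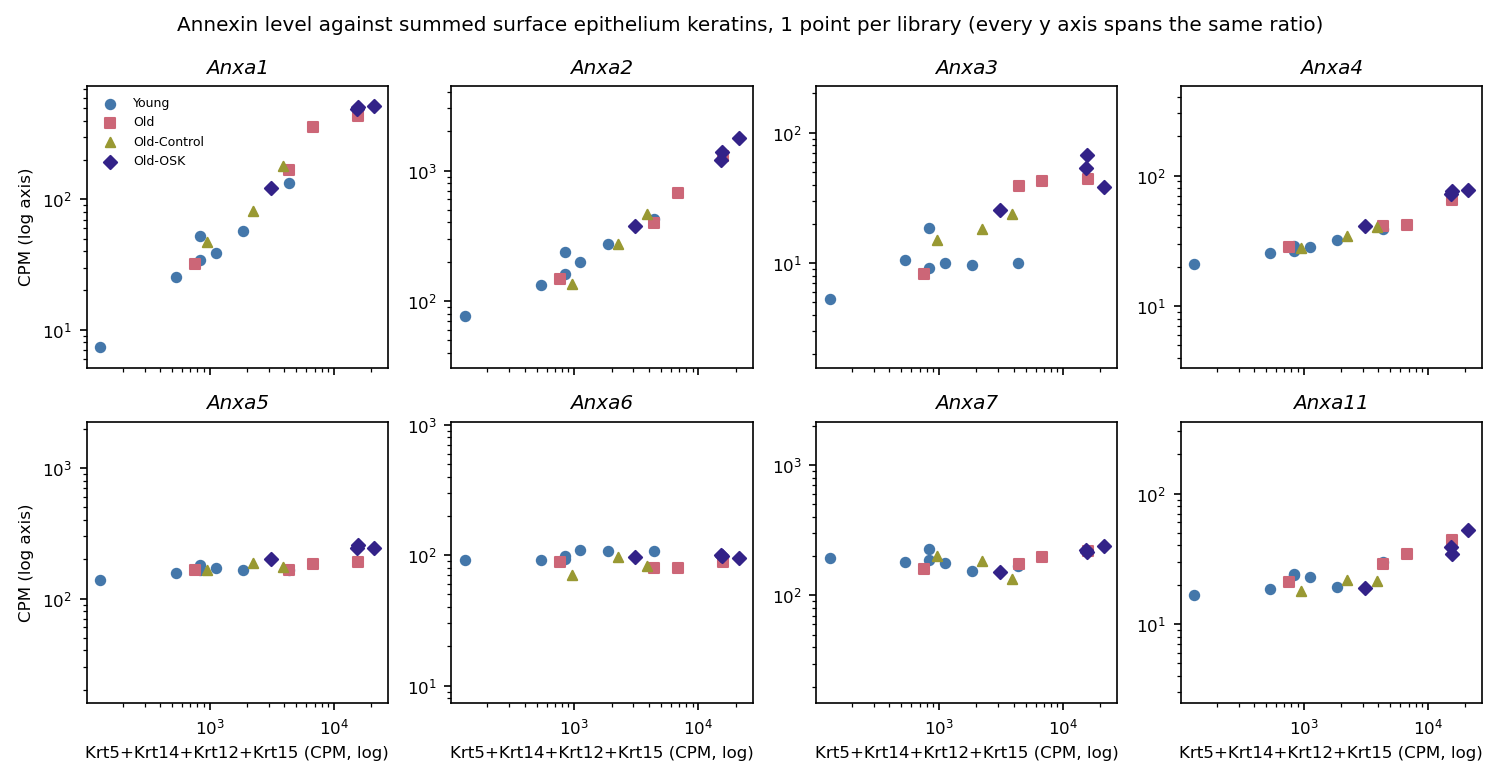
CPM of each annexin (log axis) against summed Krt5, Krt14, Krt12 and Krt15 CPM (log axis), 1 point per library and the 4 groups by colour and symbol; every y axis spans the same ratio. Anxa1 and Anxa2 climb with the keratins in every group (r = 0.988 and 0.979, n = 18). Anxa6 has no such slope over all 18 libraries (r = 0.04), but r = 0.788 within Young (n = 7).

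The lists that follow are to be read against the shares of all genes called in Old against Young, 5.4% higher and 4.16% lower. Partners with an S100 or EF-hand calcium site gave 1 gene called higher and 1 lower of 8 tested in Old against Young. S100a11, the tail partner of Anxa1, rose 4.30-fold (log2 2.10, adjusted p = 0.0398, edgeR), and S100b, a glial calcium sensor, fell by 1.07 on the log2 scale (adjusted p = 0.0091). S100a10, the Anxa2 partner, had an estimate of 1.31 (adjusted p = 0.0724). In Old-OSK against Old-Control 0 of 8 were called by edgeR and 5 were higher at an unadjusted p under 0.05 (13.3% of all genes were). DESeq2 called 3, where it called 10.3% of all genes in either direction. The S100a10 libraries were at 65.2, 147 and 90.5 CPM in Old-Control and at 639, 416, 363 and 111 CPM in Old-OSK, so replicate 4 again lay among the controls. Sri, the Anxa7 partner, had a log2 change of 0.40 (adjusted p = 0.136). None of the 5 formyl peptide receptor genes, the receptors of the Anxa1 peptide, passed the low-count filter.

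Membrane repair genes gave 1 call of 19 in Old against Young, where 5.4% of all genes were called higher. It was Cav1 (caveolin-1, the coat protein of caveolae) at log2 1.5 (adjusted p = 0.0470, edgeR). In Old-OSK against Old-Control 0 of 19 were called by edgeR. At an unadjusted p under 0.05, 12 were higher (13.3% of all genes were) and 1 was lower. DESeq2 called 9 in that comparison, where it called 10.3% of all genes in either direction. There the small calpain subunit Capns1 had a log2 change of 1.06 (adjusted p = 0.05, above the threshold before rounding) and the scaffold Ahnak, which binds the Anxa2 complex, 1.76 (adjusted p = 0.0886). Of 9 genes of plasmin formation at the cell surface, 3 rose in Old and 1 fell. Plau (urokinase) rose from 2.28 to 4.88 CPM on average (adjusted p = 0.0091), its receptor Plaur from 0.369 to 1.88 CPM (adjusted p = 0.0153) and its inhibitor Serpinb2 from 0.343 to 3.28 CPM (adjusted p = 0.0390), while the protease inhibitor Serpine2 fell by 0.87 on the log2 scale (adjusted p = 0.0135). In Old-OSK against Old-Control 0 of these 9 were called by edgeR, while 1 was higher at an unadjusted p under 0.05 and DESeq2 called 1. Of 14 genes that expose or recognise phosphatidylserine, 1 rose in Old, the bridging protein Mfge8 (log2 1.13, adjusted p = 0.0020, edgeR), and 3 fell, among them the chaperone subunit Tmem30a (-0.43) and the integrin subunit Itgb5 (-0.42). Mfge8 lay at 124 to 159 CPM in Old and at 54.0 to 77.5 CPM in Young, with no overlap. In Old-OSK against Old-Control 0 of the 14 were called by edgeR or DESeq2, and 4 were lower at an unadjusted p under 0.05. Of all 15944 genes tested, 4194 had an unadjusted p under 0.05 in that comparison, 2120 of them higher and the rest lower. With 1 library left out in turn, the calls of Mfge8, Plau, Plaur and S100b held in all 11 fits, that of Serpine2 in 10, of Itgb5 in 6, of Serpinb2 and Tmem30a in 3 each, and of S100a11, Cav1 and Krt14 in 2 each. Serpinb2 had 0 counts in Old replicate 1.

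**Figure D4:**
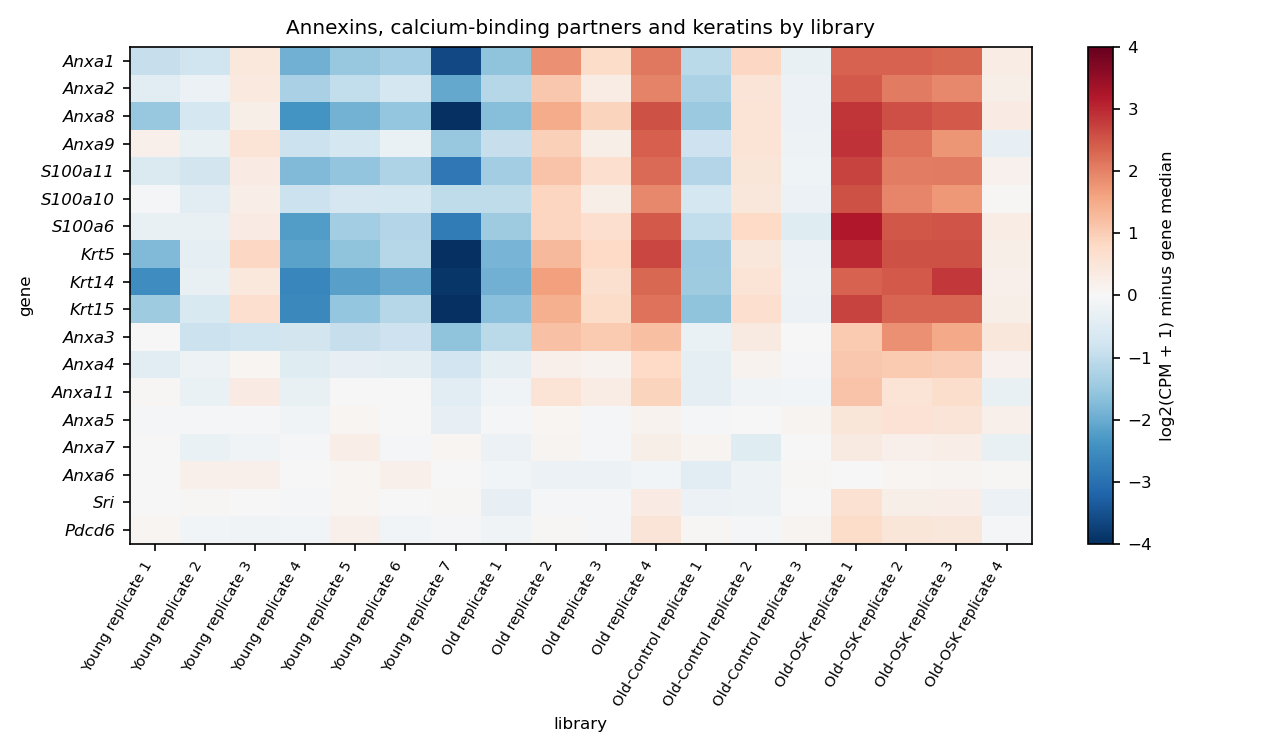
Log2(CPM + 1) minus the gene's median over 18 libraries (colour, from -4 to 4) for annexins, calcium-binding partners and keratins in rows and libraries in columns. Old replicate 4 and Old-OSK replicates 1, 2 and 3 are high, and Young replicate 7 is low, for Anxa1, Anxa2, Anxa8, S100a11, S100a6 and the keratins, while Anxa5, Anxa6 and Anxa7 stay near 0.

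The genes whose pattern was most like each member were sought by Pearson's r of log2 CPM over the 18 libraries among 10225 genes whose average log2 CPM was 3 or more. For Anxa1 they were Anxa8 (r = 0.994) and Oit1 (0.993). For Anxa2 they were Net1 (0.992) and Pycard (0.991), for Anxa4 Tgfbi (0.986) and Rarg (0.985), and for Anxa11 Ildr1 and Gjb2 (0.952 each). Anxa3 was most like Cyp2f2 (0.937) and Tnfsf10 (0.936), and Anxa5 most like Tmbim1 (0.939) and Tmem43 (0.936). For Anxa7 the nearest were Tubb4b (0.930) and Znrf2 (0.927), and for Anxa6 Celsr2 (0.891) and Ddr1 (0.890). These are the highest of many values and carry no test.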

How the data were processed

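The authors deposited 1 table of raw read counts per gene for all 18 libraries. Per the labels' protocols, polyA RNA was amplified with a SMART-Seq v4 kit and made into Nextera XT libraries. Per the submitters' processing notes, STAR 2.7.1a, featureCounts 1.6.2 and the builds GRCm38/mm10 and GRCh38/hg38 were named, with no role. The annotation and strand setting are not given in the sources used here, so reads of overlapping or antisense genes cannot be told apart.

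Counts were filtered (filterByExpr, minimum count 10, minimum total 15), TMM-scaled and fitted over all 18 libraries with 4 group means by edgeR 4.0.16's quasi-likelihood test (R 4.3.3), with Benjamini-Hochberg adjustment over 15944 genes. DESeq2 1.42.0 and other settings were alternatives. The pipeline was tested on simulated data. The lowest chi-square per gene between replicates of a group was 21.2, far beyond counting noise, so no libraries were merged. The correlations over Anxa1 to Anxa11 and both marker sums are a family of 16.

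Members and lists were chosen with earlier results of these data known. Named genes are the 8 members, up to 3 genes with the lowest p per list and comparison, and the 2 genes most like each member. A gene that meets this rule is not reported here. Old-OSK and Old-Control libraries with the same number deviated from their group means together, at r = 0.103 to 0.421 over 3 pairs. A fit with the number as a block is therefore given there beside the fit described above, which has no block. Libraries with unlike numbers ranged from r = -0.340 to 0.392, so these values cannot show that the numbers mark pairs. The block rests on the data alone, since the labels tie no number to an animal, litter or date. The other comparisons did not meet this check. Sequences are RefSeq's (GRCm38.p6) and exon lengths GENCODE M21's.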

Additional observations from a re-analysis of the deposited data

Results flagged for a closer look

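In 5 of the 24 groups of 4 to 10 libraries tested (8 members in Young, Old and Old-OSK), 1 library stood far from the others of its group by Dixon's test. The test used CPM on the linear scale. Chance alone flags about 1 group in 20 only where values are normally distributed on that scale, which was not checked. The test was not repeated on the log2 scale, so the flags hold for linear CPM alone. The 24 groups share libraries and several members vary together (Anxa1 with Anxa4, r = 0.942), so they are not independent and the count is a description only. Anxa1 was at 133 CPM in Young replicate 3, where the other 6 Young libraries lay between 7.31 and 57.2. Anxa1 was at 122 CPM in Old-OSK replicate 4, against 493 to 518 in the other 3. Anxa4 was at 41.3 CPM in the same Old-OSK library, against 72.5 to 77.5. Anxa3 was at 18.5 CPM in Young replicate 1, against 5.34 to 10.6, and at 8.24 CPM in Old replicate 1, against 39.1 to 43.9.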

How the results depend on the processing

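Genes called in Old against Young numbered 1524, and 600 with the letter M as a covariate, 354 with the keratin score, 2452 by DESeq2, 445 within the libraries without M, 191 in the numbered libraries alone and 0 with their replicate block. Annexins called there numbered 2, against 1, 0, 5, 0, 0 and 0 under the same settings. Genes called in Old-OSK against Old-Control numbered 116, and 58, 26 and 1640 in that order under the first 3 settings, 2 in a fit of the 2 groups alone, 990 in the numbered pairs and 461 with the replicate block. Annexins called there numbered 0, and 5 by DESeq2, 1 with a mean of at least 50 counts, 3 with the block and 5 in the pairs without it. With 1 library left out in turn, Old against Young gave 393 to 2140 genes and 0 to 4 annexins, and Old-OSK against Old-Control 13 (without Old-Control replicate 1) to 2881 genes (without Old-Control replicate 2) and 0 to 4 annexins. The cause of these changes was not tested, except that fits with fewer libraries have fewer samples.

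Estimates that changed sign were near 0 or came from the keratin score. For the effect of age they were -0.0084 for Anxa2, -0.012 for Anxa5 and -0.032 for Anxa7 with the score, and -0.0031 for Anxa7 with the letter M. Anxa1 in Old-OSK against Old-Control gave -0.019 with the score. Between Old-Control and Old, Anxa5 gave 0.025 with M, 0.032 with the score, 0.019 with the replicate block and 0.020 in the numbered libraries, and Anxa6 0.0098 with the score and 0.0044 in the numbered libraries. With 1 library left out, Anxa7 ranged from -0.047 to 0.11 for age, and between Old-Control and Old Anxa5 ranged from -0.058 to 0.038, Anxa6 from -0.13 to 0.096 and Anxa7 from -0.24 to 0.036. The lowest level of any member in any library was 5.34 CPM. Whether depth limited the members was not tested.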
